A study of Homo sapiens with 24 samples.

Results

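SMAD7, SKIL, PMEPA1, ID1, ID2, ID3, BHLHE40 and TGFBI are target genes of TGFβ and SMAD signalling, listed by name as 8 of the 20163 protein-coding genes of the annotation and not chosen by a measured value. To examine how TGFβ and PHF13 depletion affect their chromatin, peak lists of 3 histone modifications were read around each of them in PANC-1 cells, a human pancreatic carcinoma line. H3K4me3 marks promoters, H3K27ac active promoters and enhancers, and H3K27me3 Polycomb-repressed chromatin, and each was profiled by chromatin immunoprecipitation and sequencing (ChIP-seq). The lists held no read counts, so the depth behind a value is unknown and no counting interval is given. What was read was the length covered by peaks within 5 kb of any annotated transcription start site (TSS) of a gene, the rank of its strongest peak within the list, and the H3K27ac peaks within 100 kb.

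All groups were transfected with an siRNA. The siControl group received a control siRNA and no TGFβ, the siControl+TGFβ group the control siRNA and 10 ng/ml TGFβ for 48 h, and the siPHF13+TGFβ group an siRNA against PHF13, a PHD finger protein that binds H3K4me3, with the same TGFβ. There was no PHF13-depleted group without TGFβ among the lists analysed. Each group had 2 libraries per modification, 18 lists in all, and nothing states that the 2 libraries came from separate cultures, so p-values may measure technical spread only.

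TGFβ binds a receptor kinase pair that phosphorylates SMAD2 and SMAD3, which join SMAD4 and bind short GTCT sites in DNA. Among the first genes they activate are inhibitors of the pathway itself, so the response limits its own strength. ID genes are best known as targets of the related BMP branch, through SMAD1 and SMAD5, and TGFβ can raise or repress them depending on the cell. In carcinoma cells, prolonged TGFβ drives epithelial-to-mesenchymal transition.

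Some lists stood apart or went against their labels. Peak names inside the 6 siPHF13+TGFβ lists carried the abbreviation NCT and those inside the 6 siControl+TGFβ lists carried 3AT, whereas the study uses NCT for its control cells with TGFβ. Groups were taken from the labels, and a swap of these labels would turn every direction given between these groups and would put the PHF13-depleted libraries into the comparison with siControl. The H3K27ac list of siPHF13+TGFβ replicate 1 held 6004 peaks, against 19413 to 36104 in the other lists of that mark. The same library was the shortest for H3K4me3 (27869 peaks, the others 30770 to 39202) and for H3K27me3 (59573, the others 98211 to 165717). The median changes in covered bp and in rank with PHF13 depletion were therefore also read from siPHF13+TGFβ replicate 2 alone. The siRNA target PHF13 had H3K4me3 peaks in all 6 lists, which do not measure the depletion of its transcript. The epithelial keratin genes KRT8, KRT18, KRT19 and KRT7 carried H3K27ac in siControl and siControl+TGFβ lists, 7066 to 15770 bp in sum, while 5 leukocyte and endothelial genes had 0 bp of H3K27ac in every list.

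All 8 genes had an H3K4me3 peak in all 6 lists, so none of these promoters lacked the mark in untreated cells. With TGFβ, H3K27ac at the TSSs covered more bp on average at all 8, a direction shared by most windows tested (median log2 change 0.60). The strongest H3K4me3 peak ranked lower in its list at 6, where the median difference over all windows was 1.76 percentage points. At 5 of the 8 genes, SMAD7, SKIL, ID3, BHLHE40 and TGFBI, both siControl+TGFβ libraries had more H3K27ac bp than both siControl libraries, but 56.3% of the 12727 gene windows tested did so too. The median H3K27ac change over the 8 genes was 1.39 on the log2(bp + 100) scale, beside 0.60 over all windows tested. It was 0.57 without siControl replicate 1 (0.32 over all windows), 0.80 without siControl+TGFβ replicate 1 (0.31), and 0 with lists of equal length (0.33). In the lists of equal length only 2 of the 8 genes passed the filter. The 0 is over all 8, and the 0.33 over the 6230 windows that passed. The H3K27ac lists of siControl+TGFβ were longer than those of siControl, and the part of list length in these changes was not tested. For H3K4me3 the bp at 2 of the 8 genes, ID1 and TGFBI, did not overlap between groups and were higher with TGFβ, against 47.4% of 15616 windows tested. The median H3K4me3 log2 change over the 8 genes was 0.38, beside 0.13 over all windows, and it turned to −0.13 without siControl replicate 1. In bulk cells, a mark on fewer cells and a weaker mark in each cell cannot be told apart.

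**Figure D1:**
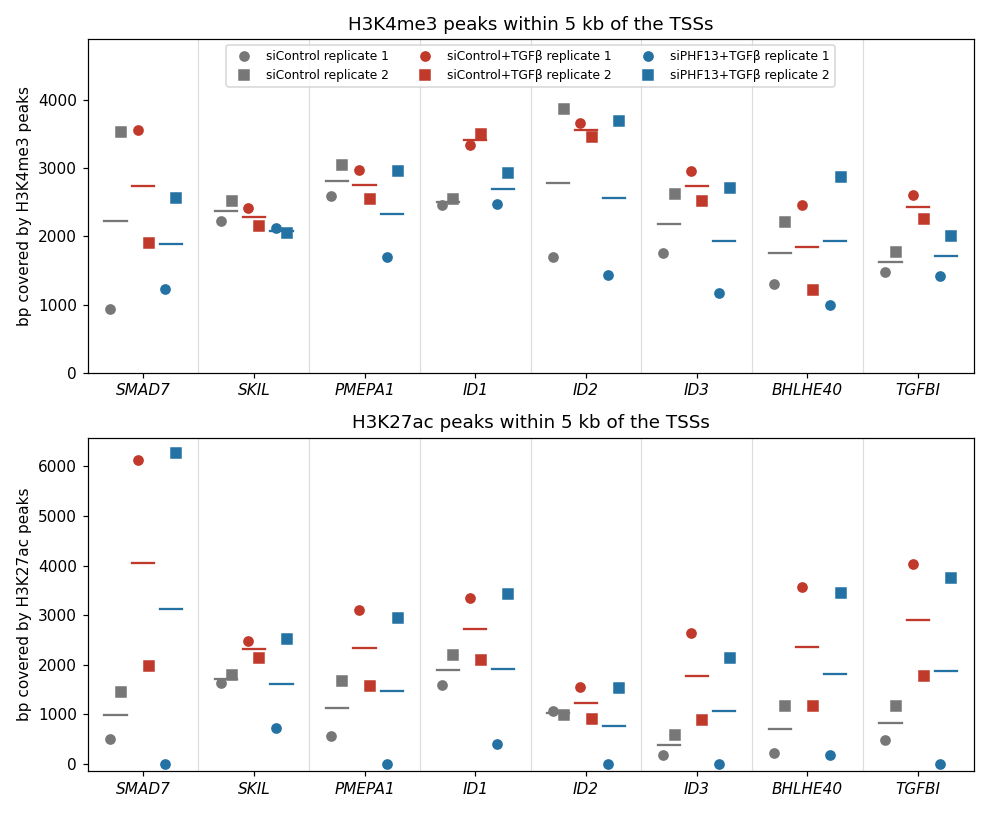
Base pairs covered by peaks within 5 kb of the TSSs of each gene (vertical axes, bp), for H3K4me3 (top) and H3K27ac (bottom). Circles are replicate 1, squares replicate 2 and bars the mean of 2 libraries, in grey for siControl, red for siControl+TGFβ and blue for siPHF13+TGFβ. H3K27ac of siPHF13+TGFβ replicate 1 lies at 0 bp for SMAD7, PMEPA1, ID2, ID3 and TGFBI, while replicate 2 lies nearer the higher red point of each.

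By limma, a linear model with a spread shared across windows, none of the 8 genes passed an adjusted p of 0.05 in any quantity or comparison. Among all windows, limma called 19 of 15616 for H3K4me3 bp with TGFβ (0.122%) and 21 with PHF13 depletion (0.134%). It called 0 of 12727 for H3K27ac bp in both comparisons, with 96 windows at an unadjusted p under 0.05 for TGFβ and 9 for PHF13 depletion. For H3K4me3 bp, ID1 and TGFBI were under an unadjusted 0.05 with TGFβ, as were 489 of all windows, and ID1 with PHF13 depletion, as were 1426. None of the 8 was for H3K27ac bp. Limma gave every gene listed the same standard error for H3K27ac bp, 1.52, so it is not the spread of a single gene. That fit includes siPHF13+TGFβ replicate 1. A fit of only the 4 libraries of the TGFβ comparison had 881 windows at an unadjusted p under 0.05 and called 0.

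SMAD7 is the inhibitory SMAD, which occupies the receptor and recruits ubiquitin ligases to it. It lies on chromosome 18 (46446223 to 46477335, minus strand, GRCh37) with 8 annotated TSSs. H3K27ac peaks covered 513 and 1452 bp in the siControl libraries, 6131 and 1985 bp with TGFβ, and 0 and 6269 bp in siPHF13+TGFβ. This was the largest H3K27ac mean of the 8 genes in siControl+TGFβ, 4058 ± 2932 bp (SD, n = 2), and the groups did not overlap between siControl and siControl+TGFβ. The TSSs of SMAD7 reach 20783 bp from the canonical one, so a longer stretch was read than at genes with close TSSs, such as ID1. The log2 change was 1.89 with a standard error of 1.52 (limma, adjusted p = 0.984), and 91.8% of windows tested had a lower change. H3K4me3 covered 934 and 3527 bp in siControl, 3568 and 1908 bp with TGFβ and 1225 and 2559 bp in siPHF13+TGFβ, values that overlapped in every comparison.

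Near the canonical TSS of SMAD7 an H3K27ac peak upstream of it was present without TGFβ, in both siControl libraries, and both siControl+TGFβ libraries kept a peak there. Nearer to the TSS, peaks were listed in siControl replicate 2, in both siControl+TGFβ libraries and in siPHF13+TGFβ replicate 2, but not in siControl replicate 1 or siPHF13+TGFβ replicate 1. H3K4me3 peaks lay mostly downstream of the canonical TSS, around further annotated TSSs, in all 6 lists.

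**Figure D2:**
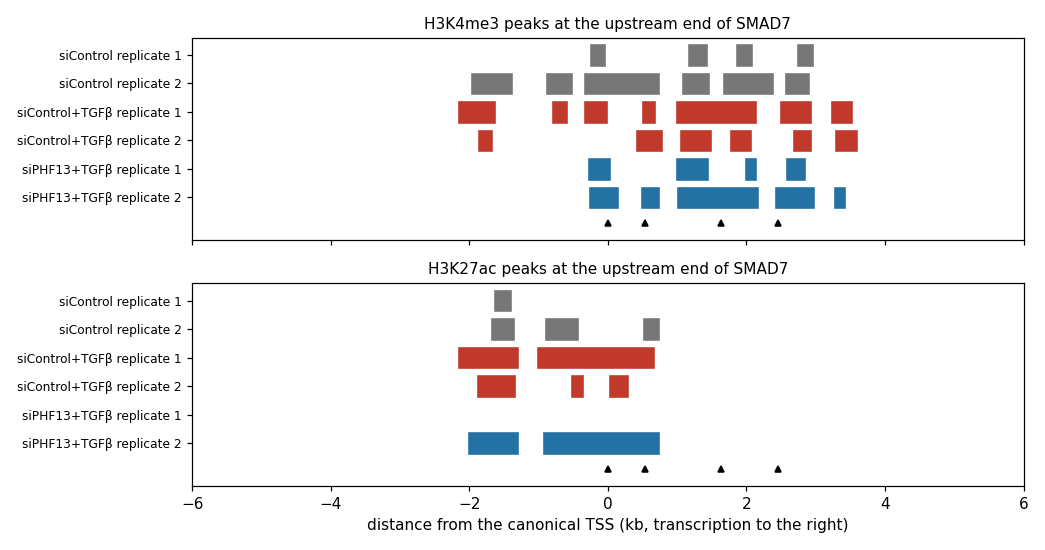
H3K4me3 (top) and H3K27ac (bottom) peaks in each list at the upstream end of SMAD7, by distance from the canonical TSS in kb with transcription to the right. Triangles are annotated TSSs, and siPHF13+TGFβ replicate 1 has H3K4me3 peaks but no H3K27ac peak in this stretch.

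SKIL encodes SnoN, a corepressor that holds SMAD complexes inactive and is degraded when TGFβ arrives. It lies on chromosome 3 (170075130 to 170114623, plus strand). By its mean share over the 6 lists it had the highest-ranked H3K27ac peak of the set, which outranked 95.1 and 90.1% of the list in siControl, 96.6 and 98.8% with TGFβ, and 85.3 and 98.6% in siPHF13+TGFβ. H3K27ac covered 1635 and 1791 bp in siControl, 2487 and 2131 bp with TGFβ and 725 and 2514 bp in siPHF13+TGFβ. The log2 change with TGFβ was 0.41, below the median window, although its groups did not overlap. SKIL was 1 of the 3 genes that kept an H3K27ac peak in siPHF13+TGFβ replicate 1, the others being ID1 and BHLHE40. Its H3K4me3 length hardly varied, from 2049 to 2523 bp over the 6 lists.

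PMEPA1 encodes a membrane protein that traps SMAD2 and SMAD3 and so dampens the response. It lies on chromosome 20 (56223448 to 56286592, minus strand). H3K27ac covered 559 and 1681 bp in siControl, 3112 and 1563 bp with TGFβ and 0 and 2937 bp in siPHF13+TGFβ, so that the higher siControl library lay above the lower TGFβ library. The place of its strongest peak in the list did not overlap between these groups. It outranked 11.9 and 42.6% of peaks in siControl, 79.3 and 79.0% with TGFβ and 0 and 78.3% in siPHF13+TGFβ, where 0 stands for no peak. The difference of 51.9 percentage points had a standard error of 28.6 (limma, adjusted p = 1), and 99.2% of windows tested had a lower one. In H3K27ac, 5 of the 8 genes, SMAD7, SKIL, PMEPA1, BHLHE40 and TGFBI, ranked higher with TGFβ without overlap, against 40.3% of windows. Counted as places from the strongest peak, a measure added after seeing the data, only PMEPA1 and BHLHE40 stood higher without overlap (15.9% of windows), and the TGFβ lists were the longer ones. From siControl+TGFβ to siPHF13+TGFβ, PMEPA1 and BHLHE40 had lower shares without overlap, 2 of the 8 against 21.3% of windows, but 1 of the siPHF13+TGFβ lists held 6004 peaks, with none at PMEPA1, and the places of BHLHE40 overlapped.

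ID1, ID2 and ID3 encode helix-loop-helix proteins without a DNA-binding region, which pair with bHLH factors and keep them off DNA. ID1 (chromosome 20, 30193086 to 30194318, plus strand) had a strong H3K27ac promoter in all 6 lists. It was covered by 1597 and 2192 bp in siControl, 3343 and 2087 bp with TGFβ, and 411 and 3426 bp in siPHF13+TGFβ, and its top peak outranked 88.4 to 94.3% of the siControl and siControl+TGFβ lists. ID1 H3K4me3 covered 2455 and 2553 bp in siControl and 3335 and 3500 bp with TGFβ. The means were 2504 ± 69.3 bp against 3418 ± 117 bp (SD, n = 2), a log2 change of 0.43 with a standard error of 0.11 (limma, adjusted p = 0.871). Upstream of the canonical TSS it covered 591 and 615 bp in siControl and 1258 and 1175 bp with TGFβ. In siPHF13+TGFβ it covered 2472 and 2934 bp, both below both siControl+TGFβ libraries, a log2 change of −0.33 (limma, adjusted p = 0.408). SKIL and TGFBI also had lower H3K4me3 bp in both siPHF13+TGFβ libraries, 3 of the 8 genes against 62% of windows.

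ID2 (chromosome 2, 8818975 to 8824591, plus strand) was the member with the least H3K27ac change with TGFβ at the TSSs, 0.20 on the log2 scale. Peaks covered 1069 and 988 bp in siControl, 1558 and 915 bp with TGFβ and 0 and 1537 bp in siPHF13+TGFβ, all of it upstream of the canonical TSS. It had no H3K27ac region at all within 100 kb beyond the promoters. ID2 was also the only one with H3K27me3 in more than 1 list, covering 0 and 398 bp in siControl, 524 and 453 bp with TGFβ and 0 and 505 bp in siPHF13+TGFβ. Both lists at 0 bp were the shorter H3K27me3 list of their group. The groups did not overlap between siControl and siControl+TGFβ, as in 6% of 8593 windows tested, and limma called none of them (adjusted p = 1 for ID2, 161 windows at an unadjusted p under 0.05). The log2 change of 1.40 was 0.24 without siControl replicate 1, and that with PHF13 depletion, −1.26, was 0.04 without siPHF13+TGFβ replicate 1. TGFBI had 174 bp in siControl replicate 2, and the other 6 genes had 0 bp of H3K27me3 in every list.

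ID3 (chromosome 1, 23884417 to 23885992, minus strand) had the largest H3K27ac change of the set at the TSSs with TGFβ. Peaks covered 177 and 582 bp in siControl, 2649 and 894 bp with TGFβ and 0 and 2130 bp in siPHF13+TGFβ. The log2 change of 1.93 had a standard error of 1.52 (limma, adjusted p = 0.984). Its H3K4me3 covered 1758 and 2619 bp in siControl, 2958 and 2526 bp with TGFβ and 1167 and 2704 bp in siPHF13+TGFβ. These values overlapped, with siControl replicate 2 between both TGFβ libraries.

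BHLHE40 encodes a bHLH repressor that also acts in the circadian clock. It lies on chromosome 3 (5021122 to 5027008, plus strand). H3K27ac covered 226 and 1174 bp in siControl, 3560 and 1178 bp with TGFβ and 184 and 3449 bp in siPHF13+TGFβ. The groups did not overlap with TGFβ, but siControl replicate 2 and siControl+TGFβ replicate 2 were almost equal. The log2 change was 1.75 (limma, adjusted p = 0.984). Its H3K4me3 ranged from 986 to 2877 bp with both extremes in siPHF13+TGFβ.

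TGFBI encodes a secreted extracellular matrix protein that binds collagen and integrins, the effector of the set rather than a regulator. It lies on chromosome 5 (135364677 to 135399507, plus strand) with 14 annotated TSSs. H3K27ac covered 488 and 1162 bp in siControl, 4031 and 1765 bp with TGFβ and 0 and 3759 bp in siPHF13+TGFβ, a log2 change of 1.69 with TGFβ (standard error 1.52; limma, adjusted p = 0.984). In 4 of the 5 lists with a peak the strongest lay about 29 kb inside the gene, at downstream TSSs. Within 5 kb downstream of the canonical TSS H3K27ac covered 183 and 0 bp in siControl, 930 and 579 bp with TGFβ and 0 and 1022 bp in siPHF13+TGFβ, and upstream of it 0 bp in every list. H3K4me3 on the same side covered 1089 and 1040 bp in siControl, 1808 and 1647 bp with TGFβ and 1074 and 1627 bp in siPHF13+TGFβ. Over all TSSs the H3K4me3 means were 1630 ± 207 and 2437 ± 247 bp (SD, n = 2), a log2 change of 0.55 with a standard error of 0.20 (limma, adjusted p = 0.871).

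The H3K4me3 rank compares the strongest peak near a gene with all peaks of its own list, at promoters or not. Here most of the 8 genes stood lower with TGFβ. The rank is the share of peaks in the same list with a lower −log10 q. Between siControl and siControl+TGFβ it was lower without overlap at 5 of the 8 genes, SKIL, PMEPA1, ID1, BHLHE40 and TGFBI, against 11.6% of 15616 windows tested. The median difference was −9.46 percentage points over the 8 genes and 1.76 over all windows. With lists cut to equal length it was −16.5, and without siControl+TGFβ replicate 2 it was −5.98, beside −1.01 and 2.58 over all windows. By place from the strongest peak, the same 5 genes and ID2 stood lower without overlap, 6 of the 8 against 22.8% of windows. None of the 8 passed limma's adjusted p of 0.05, and 3, SKIL, PMEPA1 and TGFBI, were at an unadjusted p under 0.05, as were 705 of all windows, of which limma called 1 (0.0064%).

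For SKIL the strongest H3K4me3 peak outranked 92.2 and 86.4% of the list in siControl, 70.4 and 74.5% with TGFβ and 70.6 and 87.7% in siPHF13+TGFβ. Counted from the strongest peak it held places 2408 and 4828 in siControl and places 11604 and 9247 with TGFβ. This difference of −16.81 points (standard error 6.52; limma, adjusted p = 0.966) was lower than that of nearly every window, only 0.231% having a lower one. TGFBI ranked above 73.0 and 82.4% in siControl, 60.6 and 64.8% with TGFβ, and 56.4 and 68.4% in siPHF13+TGFβ. Its difference was −15.05 points (standard error 5.82; limma, adjusted p = 0.966), with 0.506% of windows lower.

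PMEPA1 varied little between the libraries of a group. Its peak outranked 67.5 and 68.7% in siControl, 57.4 and 58.2% with TGFβ and 58.3 and 57.5% in siPHF13+TGFβ, a difference of −10.35 points with TGFβ (standard error 3.09; limma, adjusted p = 0.966). The strongest H3K4me3 summit of PMEPA1 lay 518 and 477 bp upstream of the canonical TSS in siControl, 1252 and 1289 bp downstream of it with TGFβ, and 1562 and 1522 bp downstream in siPHF13+TGFβ, a shift singled out after its values were seen. BHLHE40 outranked 43.8 and 50.6% in siControl, 42.8 and 29.1% with TGFβ and 26.1 and 40.1% in siPHF13+TGFβ. For ID1 these shares were 86.3 and 91.9%, 81.6 and 79.6%, and 76.1 and 85.1%. ID2 and ID3 overlapped between groups. SMAD7 was at 29.0 and 40.1% in siControl and 45.8 and 46.2% with TGFβ, above without overlap as in 23.5% of windows, although its places from the top, 21851 and 21197 against 21259 and 19525, overlapped. It stood at 27.6 and 39.4% in siPHF13+TGFβ, where both libraries lay below both siControl+TGFβ libraries. It was the only 1 of the 8 lower without overlap there, against 34.3% of windows, but its places overlapped and its difference was 0.545 points, turned in sign, with lists of equal length. Limma called 3 of all windows (0.0192%) and none of the 8. By place from the strongest peak, 7 of the 8 stood higher without overlap in siPHF13+TGFβ than in siControl+TGFβ, against 21.8% of windows. SMAD7 was the exception, and the siPHF13+TGFβ lists were the shorter ones.

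**Figure D3:**
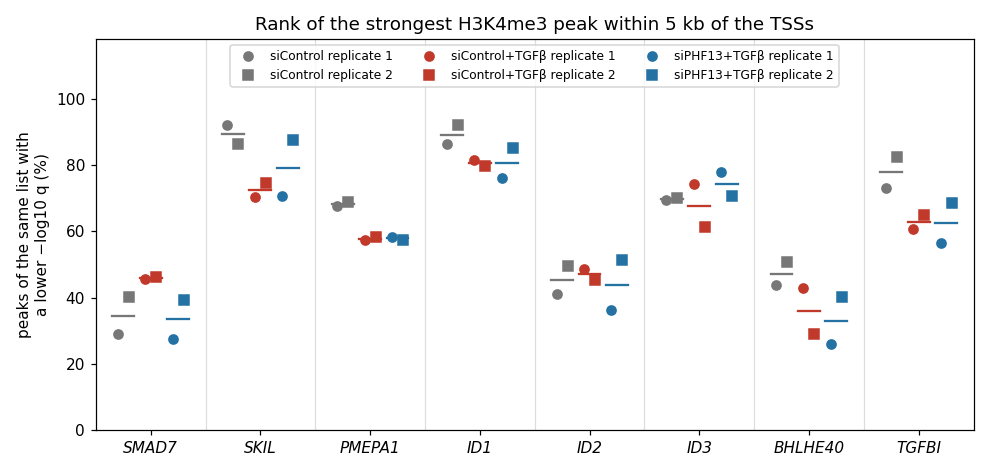
Rank of the strongest H3K4me3 peak near each gene, as the percent of peaks of the same list with a lower −log10 q (vertical axis), with symbols, colours and bars as for covered bp. Both red points lie below both grey points for SKIL, PMEPA1, ID1, BHLHE40 and TGFBI and above them for SMAD7.

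At ID1 and TGFBI the H3K4me3 thus covered more bp and ranked lower at the same time, without overlap in either quantity, a pair of changes that 6.21% of windows showed. The fold enrichment that the peak caller gave the same peaks was read after the ranks had been seen. For TGFBI it was 6.41 and 8.88 in siControl, 4.85 and 4.96 with TGFβ, and 5.49 and 6.05 in siPHF13+TGFβ. With TGFβ it was lower without overlap at 5 genes, the same 5 as for the rank, against 15.9% of windows. Both are scores of the same peaks, so this is not separate evidence. SMAD7 was higher without overlap, 2.625 and 2.549 in siControl and 2.703 and 2.854 with TGFβ. From siControl+TGFβ to siPHF13+TGFβ the fold enrichment was higher without overlap at 7 of the 8, the exception being SMAD7, against 33.7% of windows. The median difference there was 0.556 over the 8 genes and 0.293 over all windows, while for the rank the medians were −0.13 points over the 8 genes and −3.71 over all windows.

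**Figure D4:**
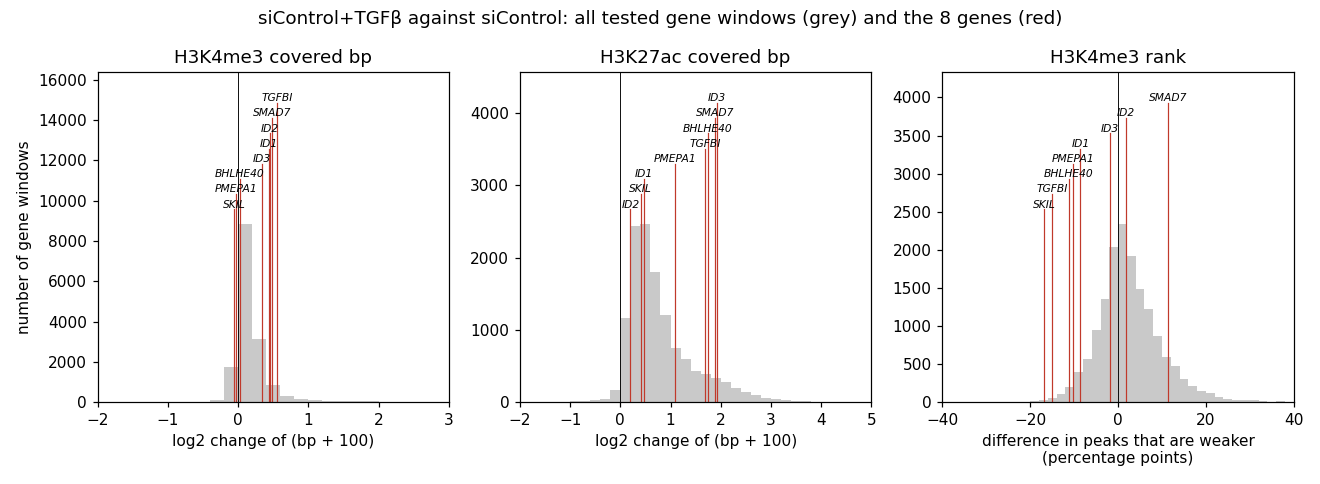
Changes from siControl to siControl+TGFβ over all gene windows tested (grey bars, number of windows) with the 8 genes as red lines, for H3K4me3 bp, H3K27ac bp (log2 change of bp + 100) and H3K4me3 rank (percentage points). For the rank, SKIL, TGFBI, BHLHE40, PMEPA1 and ID1 lie in the left tail, while for H3K27ac SMAD7, ID3, BHLHE40 and TGFBI lie in the right shoulder.

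Beyond the promoters, 63 merged H3K27ac regions lay within 100 kb of a TSS of the 8 genes and over 5 kb from every coding TSS. Of these, 12 were gained with TGFβ, that is present in both siControl+TGFβ lists and in neither siControl list, and 0 were lost. The same was true of 10.3% of 15474 such regions near any coding gene for gains and 0.116% for losses. Cutting the H3K27ac lists to 6004 peaks each left 13 regions near the 8 genes, of which 2 were gained (7.51% of all). Without siControl replicate 2, 19 of the 63 were gained (19.2% of all), and without siControl+TGFβ replicate 2, 21 were, a smaller share than the 43.9% of all. Of the 12, 3 lay near ID3, 3 near BHLHE40, 3 near TGFBI, 2 near PMEPA1 and 1 near SMAD7, and none near SKIL, ID1 or ID2. All 3 regions near ID3 were gained ones. A region within this distance need not act on the gene, and 1 of the 3 near ID3 had RPL11 as its nearest coding gene.

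**Figure D5:**
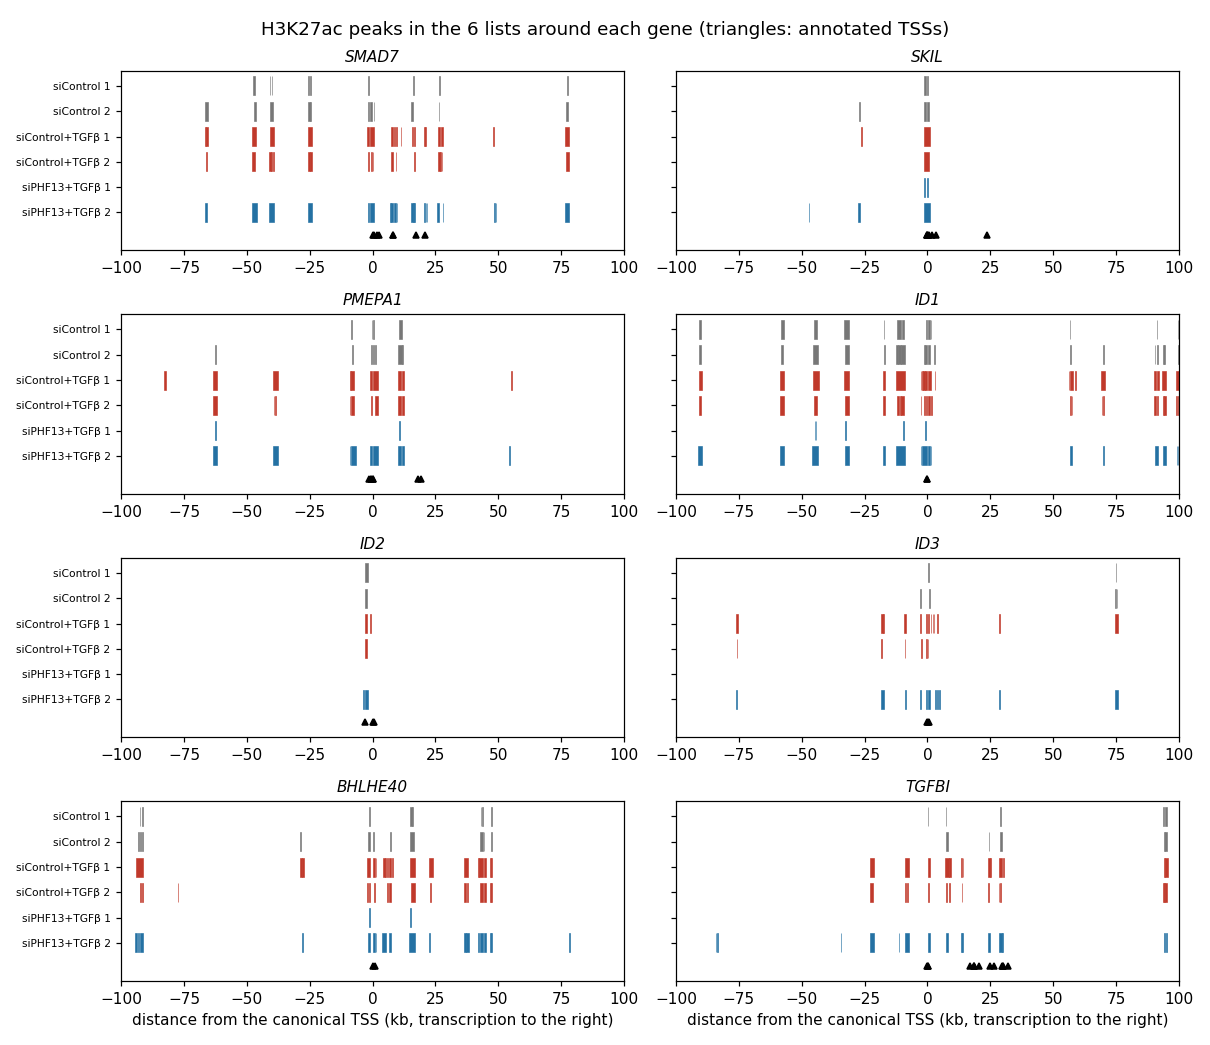
H3K27ac peaks in the 6 lists around each gene, by distance from its canonical TSS in kb with transcription to the right and annotated TSSs as triangles. Regions with a peak in both red rows and in neither grey row are the gained ones, seen near SMAD7, PMEPA1, ID3, BHLHE40 and TGFBI, and ID2 has peaks at its promoter only.

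The largest gained region near each of 4 genes had no peak in either siControl library. Near PMEPA1, the intergenic chr20:56322733-56324596, 38.6 kb upstream, was covered by 1662 and 766 bp with TGFβ and by 0 and 1864 bp in siPHF13+TGFβ. Near TGFBI, the intergenic chr5:135341670-135343531, 22.1 kb upstream, was covered by 1557 and 1080 bp and by 0 and 1862 bp. Each was thus as long in siPHF13+TGFβ replicate 2 as in any TGFβ library, and absent from replicate 1. Near BHLHE40, the intergenic chr3:5057483-5059306, 37.3 kb downstream, was covered by 1527 and 1227 bp with TGFβ and by 0 and 1612 bp in siPHF13+TGFβ. Near ID3, chr1:23903396-23904488, 17.9 kb upstream in an exon of a long non-coding RNA gene, was covered by 891 and 443 bp and by 0 and 997 bp. Of these 4 regions, H3K4me3 peaks touched that of PMEPA1 in all 6 lists, that of ID3 in 2, that of BHLHE40 in 1 and that of TGFBI in 0.

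The 300 bases around the strongest siControl+TGFβ summit are shown because these regions had an H3K27ac peak in both siControl+TGFβ lists and in neither siControl list. The siControl lists were shorter, so a missing peak there need not be an absent mark. They are on the plus strand of GRCh37, with GTCT and its reverse complement AGAC in capitals.
PMEPA1 region, chr20:56323263-56323562: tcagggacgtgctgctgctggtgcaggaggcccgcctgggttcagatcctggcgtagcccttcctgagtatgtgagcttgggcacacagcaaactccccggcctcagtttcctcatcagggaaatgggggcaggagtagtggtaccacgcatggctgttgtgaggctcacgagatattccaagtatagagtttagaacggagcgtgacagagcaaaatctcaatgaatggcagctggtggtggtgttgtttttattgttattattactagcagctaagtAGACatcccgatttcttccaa
TGFBI region, chr5:135342762-135343061: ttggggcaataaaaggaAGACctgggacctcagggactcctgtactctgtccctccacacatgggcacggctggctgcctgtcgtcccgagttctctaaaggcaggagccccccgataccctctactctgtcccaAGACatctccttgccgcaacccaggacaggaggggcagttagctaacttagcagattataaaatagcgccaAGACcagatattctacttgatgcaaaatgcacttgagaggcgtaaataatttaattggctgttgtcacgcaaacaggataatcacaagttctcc
ID3 region, chr1:23903987-23904286: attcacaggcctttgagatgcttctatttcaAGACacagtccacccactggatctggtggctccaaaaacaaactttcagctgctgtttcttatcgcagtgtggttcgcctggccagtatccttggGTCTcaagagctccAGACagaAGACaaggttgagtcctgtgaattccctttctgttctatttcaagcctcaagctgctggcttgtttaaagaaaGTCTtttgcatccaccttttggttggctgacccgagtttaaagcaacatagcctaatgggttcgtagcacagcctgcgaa
BHLHE40 region, chr3:5057785-5058084: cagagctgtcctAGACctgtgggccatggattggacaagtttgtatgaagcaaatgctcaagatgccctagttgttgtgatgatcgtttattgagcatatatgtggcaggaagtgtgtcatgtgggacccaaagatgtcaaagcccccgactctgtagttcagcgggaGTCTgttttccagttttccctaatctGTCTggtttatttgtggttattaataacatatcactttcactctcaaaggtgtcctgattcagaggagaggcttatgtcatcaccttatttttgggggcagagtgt
They held 1, 3, 5 and 3 GTCT matches in this order, overlapping matches counted. A match occurred in 87.2% of 17130 distal H3K27ac summit windows of this length, with a mean of 2.27 matches. The BHLHE40 window also held 1 match to TGANTCA, the AP-1 site, as did 12.5% of those windows. In the promoters of the 8 genes, read from 250 bases before to 50 after the canonical TSS, GTCT matched in all 8 (82.2% of coding promoters), the GC-rich SMAD1 site GGCGC in 5 (64.2%), and TGANTCA in none (5.42%).

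TGFBI also had chr5:135355564-135357346, 8.22 kb upstream, with 1484 and 919 bp after TGFβ and 0 and 1783 bp after PHF13 depletion with TGFβ, and an intronic chr5:135373320-135373948 with 629 and 304 bp and 0 bp in both siPHF13+TGFβ libraries. The intronic region was the only one of the 63 called lost with PHF13 depletion, against 2.79% of regions, and 0 of the 63 were gained, against 0.00646%. BHLHE40 also had chr3:5043448-5045030, 23.1 kb downstream, with 1583 and 487 bp and then 0 and 257 bp, and chr3:5067700-5068138 with 398 and 183 bp and then 0 and 438 bp. ID3 also had chr1:23894580-23895334 with 755 and 165 bp and then 0 and 499 bp, and chr1:23961572-23962066, in an intron of the MDS2 gene, with 495 and 256 bp and then 0 and 403 bp. PMEPA1 also had chr20:56293841-56294229 with 389 and 297 bp and then 0 and 329 bp, and SMAD7 the intronic chr18:46449207-46450015 with 749 and 173 bp and then 0 and 181 bp. Neither the 12 gained regions nor any other of the 63 had an H3K27me3 peak in any list.

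The distal region with the highest mean covered bp over the 6 lists was present in every list. It lay near ID1, chr20:30180740-30184326, 10.6 kb upstream and intergenic, with 2664 and 3163 bp in siControl, 3511 and 2435 bp with TGFβ, and 336 and 3573 bp in siPHF13+TGFβ. By the same measure, the first near SMAD7 was chr18:46358818-46361822, which lay nearer to CTIF and covered 1292 and 1872 bp in siControl, 2937 and 2552 bp with TGFβ and 437 and 2923 bp in siPHF13+TGFβ. Near BHLHE40 it was chr3:5035748-5038114, 15.8 kb downstream, with 764 and 1549, 1987 and 1559, and 176 and 2275 bp. Near PMEPA1 it was chr20:56273418-56275164, which overlaps an exon of the gene, with 1323 and 1312, 1301 and 1183, and 464 and 1378 bp. Near SKIL it was chr3:170047886-170048762, with 226 bp in siControl replicate 2 and 877 bp in siPHF13+TGFβ replicate 2 only. Between siControl and siControl+TGFβ the ID1 values overlapped, and those of PMEPA1 lay slightly lower with TGFβ.

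Summed over all distal peaks within 100 kb, H3K27ac was higher with TGFβ without overlap at 6 of the 8 genes, against 54.2% of 10319 gene windows tested, ID2 and SKIL being the others. For ID3 it was 0 and 0 bp in siControl and 2141 and 864 bp with TGFβ, with 0 and 1899 bp in siPHF13+TGFβ. For BHLHE40 it was 2384 and 5630 bp, then 13398 and 7301 bp, and for SMAD7 3645 and 7198 bp, then 12667 and 8430 bp. Limma called none of the 10319 windows in either comparison, with 320 at an unadjusted p under 0.05 for TGFβ, ID3 among them (adjusted p = 0.946), and 30 for PHF13 depletion, where 0 of the 8 genes were lower without overlap (8.18% of windows). The median log2 change over the 8 genes was 1.20, and 1.05 over all windows. Without siControl replicate 1 these were 0.66 and 0.65.

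In the comparison of siPHF13+TGFβ with siControl+TGFβ, H3K27ac at the 8 genes split by library. In replicate 1 all 8 genes were below both siControl+TGFβ libraries, as were 92.9% of windows. In replicate 2 none was below both, 5 lay between them and 3 above both, where 10.1% of windows lay below, 60.3% between and 29.6% above. The median log2 change over the 8 genes was −1.74 with both libraries, beside −1.41 over all windows, and 0.41 with replicate 2 alone, beside 0.16. With replicate 1 alone, limma called 7 of the 8 genes and 9887 of all 12727 windows, the lone library taken to vary like the other groups. For H3K4me3 bp, replicate 1 was below both siControl+TGFβ libraries at all 8 genes (94.8% of windows) and replicate 2 at 3 (63.4%). With replicate 2 alone the median log2 change was −0.022 for H3K4me3 bp (−0.090 over all windows) and 0.34 for distal H3K27ac (0.30). The median rank difference was then 4.14 points for H3K4me3 (−1.52 over all windows) and 3.44 for H3K27ac (2.21). Of the 12 regions gained with TGFβ, 11 had a peak in siPHF13+TGFβ replicate 2, against 76.3% of the 1598 gained regions near all coding genes, and 0 in replicate 1, against 1.31%.

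Of 15 other TGFβ target genes chosen from general knowledge of the pathway, 12 passed the filter for H3K27ac. Of these, 5 were higher with TGFβ without overlap, against 56.3% of all windows tested, and limma called 0. LTBP2, a latent TGFβ binding protein, had 0 and 358 bp in siControl and 1485 and 764 bp with TGFβ. ATF3, a stress factor that joins SMAD3, had 218 and 270 bp, then 1978 and 646 bp. CCN2, a matricellular growth factor, had 278 and 1030 bp, then 2142 and 1506 bp. In siPHF13+TGFβ these 3 genes were at 0 or 161 bp in replicate 1 and between 1938 and 2124 bp in replicate 2. For the H3K4me3 rank, 4 of the 15 were lower with TGFβ without overlap (11.6% of windows) and 2 higher (23.5%). Their median difference was 0.20 points, beside 1.76 over all windows.

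The gene whose covered bp over the 18 lists was nearest to that of each member, by mean absolute difference, was found as a further description. It was PLD1 for SKIL, 86.4 bp away on average, CLN8 for ID3 (110 bp), ADORA2B for PMEPA1 (112 bp) and TCF7 for TGFBI (130 bp). ID1 was nearest to SMG1 (137 bp), BHLHE40 to MIDN (162 bp), ID2 to ZNF219 (233 bp) and SMAD7 to SLC25A37 (288 bp). None of these neighbours was another member, and SMAD7 and ID2 had the most distant ones.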

How the data were processed

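Peak lists of ChIP-seq libraries from PANC-1 cells were used as deposited. The authors mapped trimmed reads to hg19 (Bowtie 2), dropped duplicates (Picard), and ran MACS2 on each library with its input, in narrow mode for H3K4me3 and H3K27ac and in broad mode for H3K27me3. Each deposited peak has coordinates, a score, −log10 values of p and q, and a ratio, the fold enrichment over control; the lists hold no counts, so depth is unknown, and list length and peak width vary with depth and enrichment. The lowest −log10 q was 1.3 in the narrow and 1.0 in the broad lists, so the narrow lists hold peaks weaker than the threshold the methods give.

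Coding genes and TSSs were those of GENCODE 44 in its GRCh37 version (20163 genes). Covered bp within 5 kb of all TSSs, log2(bp + 100), and ranks were tested with limma 3.58.1 in R 4.3.3 on all windows with a peak in at least 2 of the 6 lists of a mark, 3 groups in a single fit, Benjamini-Hochberg adjusted; fold changes on this scale understate those of short windows. Limma was tested on simulated data. Distal regions were merged peaks over 5 kb from every coding TSS, called gained where both libraries of the later group and neither of the other had a peak. Alternatives were the strongest 50% of peaks, equal list lengths, other windows, pseudocount, filter, scaling and samples, the replicate block and leaving out each library; a −log10 q of at least 3, the stated narrow threshold, crossed replicate numbers and places from the strongest peak were added after seeing the data.

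The members, gene lists and rules were chosen with earlier results of these data known. All 8 genes are given in every list, other TGFβ targets by counts and by values for the 4 with the largest non-overlapping H3K27ac changes, 1 of which is not reported here, and distal regions gained or lost, or with the highest mean bp near each gene. Sequences were read from GRCh37, which the coordinates of the lists match. Input libraries were not analysed here.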

Additional observations from a re-analysis of the deposited data

How the results depend on the processing

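Results were recomputed with the strongest 50% of peaks, lists of equal length, narrower windows, coding transcripts only, another pseudocount, no filter, centred libraries, a fit of the 4 libraries compared and each library left out. None of the 8 genes passed limma's threshold in any quantity, except without siPHF13+TGFβ replicate 2. The median H3K4me3 rank difference with TGFβ kept its sign in 13 of 13 alternatives, and was −16.5 with lists of equal length and −11.2 to −5.98 leaving out 1 library. The H3K4me3 bp median kept its sign in 13 of 15 alternatives with TGFβ and in 15 of 15 with PHF13 depletion. With TGFβ it ranged from −0.13 to 0.535 when leaving out 1 library, negative without siControl replicate 1. With PHF13 depletion the sign was kept in 9 of 13 for the H3K4me3 rank, 12 of 14 for H3K27ac bp and 10 of 12 for the H3K27ac rank. For ID2 H3K27me3 it was kept in 11 of 13 with TGFβ and 10 of 13 with PHF13 depletion. For PHF13 depletion, leaving out 1 library gave H3K27ac bp medians of −3.87 to 0.41 with 0 to 7 genes called, distal H3K27ac 0 to 6 called, H3K27ac rank medians of −56.7 to 3.44 with 0 to 4 called, and H3K4me3 rank medians of −5.41 to 4.14. The last was 10.7 with lists of equal length. The H3K27me3 change of ID2 was 2.96 with TGFβ and −2.79 with PHF13 depletion at a pseudocount of 10 bp, and ranged from 0.24 to 2.55 and from −2.55 to 0.04 leaving out 1 library. With TGFβ, leaving out 1 library gave H3K27ac bp medians of 0.57 to 2.02 and distal ones of 0.66 to 1.68. Over all alternatives the sign was kept in 14 of 15 for H3K27ac bp and 12 of 13 for distal bp. With lists of equal length the distal changes of PMEPA1 and ID1 turned to −0.08 and −0.94, among genes that passed the filter. Regions gained with TGFβ numbered 2 with lists of equal length and 12 to 21 leaving out 1 library, and those lost 1 and 0 to 1, where 7.51% and 11 to 43.9% of all regions were gained. With PHF13 depletion, 1 was gained with lists of equal length and 0 to 11 leaving out 1 library, while 2 were lost at a −log10 q of at least 3 and 1 to 33 leaving out 1 library. The 11 stand beside 13.2% of all regions, the 2 beside 2.46% and the 33 beside 34%. The causes were not tested.

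Same-numbered libraries were not shown to be paired: their deviations correlated at −0.411 for H3K4me3 bp and −0.237 for H3K27ac bp between siControl and siControl+TGFβ. With the replicate number as a block, medians kept their values (H3K4me3 bp with TGFβ 0.38), 0 of the 8 genes were called, and H3K4me3 bp calls among all windows went from 19 and 21 to 0 and 0. Crossed numbers, an alternative chosen after seeing the data, gave 3 and 3. Leaving out any 1 library gave 0 such calls, and over the remaining alternatives these H3K4me3 counts ranged from 4 to 124 with TGFβ and 4 to 188 with PHF13 depletion, the highest with the strongest 50% of peaks. Without siPHF13+TGFβ replicate 2, limma called 9887 windows for H3K27ac bp, 5132 for distal bp and 7044 for H3K27ac rank, against 0 with it. Without a filter on low values it called 3 and 3 for H3K27ac bp, 38 and 38 for distal bp and 20 and 3 for H3K27me3. The lists hold no depth, so a peak missing from a short list need not be a mark that is absent.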
